A study of Mus musculus with 10 samples.

Results

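The genes C1qa, C1qb, C1qc, C3, Cfb, Cfp, C3ar1, C5ar1 and C5ar2 encode the chains of C1q, a set of complement factors and the receptors of the anaphylatoxins. They were taken by symbol from the gene count tables of macrophages sorted from mouse skin wounds or from bone marrow cultures, and make up 9 of the 55414 gene identifiers counted. All 9 had counts in every library and passed the filter on low counts in each fit.

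Complement is a cascade of proteins that marks particles for uptake and calls in leukocytes. C1q, a hexamer of bundles of the C1qa, C1qb and C1qc chains, binds immune complexes and the surface of apoptotic cells and starts the classical pathway. C3 is the protein on which the pathways converge; factor B (Cfb) is the protease of the alternative pathway C3 convertase and properdin (Cfp) stabilises that convertase. The C3a fragment acts through C3ar1 and the C5a fragment through C5ar1, both G protein-coupled receptors of myeloid cells, while C5ar2 binds C5a without the usual G protein coupling. Macrophages are a main source of C1q, whereas much circulating C3 comes from the liver, and neutrophils carry C5ar1 and store properdin.

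The comparison ran between 4 groups. Wound Eff+ (3 libraries) and wound Eff- (3 libraries) were skin macrophages of LysMCreER/mTmG mice whose wounds were collected after 3 days, and tamoxifen was given for 6 days. The labels give both wound groups the same genotype: a tamoxifen-activated Cre recombinase driven by the lysozyme gene Lyz2 (LysM), which is active in macrophages and neutrophils alike, and a reporter that switches from a red to a green membrane protein on recombination. Culture Eff+ (2 libraries) and culture Eff- (2 libraries) were Wild Type macrophages grown from bone marrow with GM-CSF for 7 days, with apoptotic fibroblasts listed as the treatment of all 4 libraries for 12 h. Eff+ and Eff- are the study's sorting classes for efferocytosis, the uptake of apoptotic cells, and the question was how the cells of these classes differ. The column names of the culture Eff- counts carry the letters NOAC, so whether those cells had met apoptotic fibroblasts is unclear. The labels used here give no age, and they do not say that numbered samples are separate animals or cultures. The p-values therefore weigh differences against the spread of these samples alone, and that spread may be technical.

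Total counts ran from 39735437 to 57308823 in the wound and from 17622740 to 27261880 in culture. Counts of Lyz2 ran from 160 to 413 in the wound libraries numbered 1 and 3 of both groups, against 159484 (Eff+) and 345046 (Eff-) in those numbered 2. Whether all 6 wound libraries carry the same Lyz2 allele was not tested. In culture, 35649 and 44836 identifiers had a count in Eff+ 1 and Eff- 1, against 19649 and 18171 in Eff+ 2 and Eff- 2. Culture Eff- 1 also stood apart in cell type markers, with 9 dendritic cell genes holding 0.0626% of its counts against 0.00215 to 0.0168% in the other 3 culture libraries, and 11 macrophage genes holding 0.174% against 0.354 to 0.547%. In the wound, the 11 macrophage genes held 0.240 to 0.315% of counts in Eff+ and 0.526 to 0.680% in Eff-. The 16 neutrophil genes held 2.80 to 3.25% in Eff+ and 0.489 to 0.861% in Eff-, although all 6 libraries carry the label macrophage. Of the neutrophil genes 14 were called higher and 0 lower in wound Eff+, and of the macrophage genes 0 were called higher and 6 lower. In bulk libraries such as these, fewer cells of a type and less RNA per cell cannot be told apart.

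The 3 C1q genes lie side by side on the minus strand of chromosome 4 of GRCm39, the build of the wound counts, within 18.7 kb: C1qb (ENSMUSG00000036905) from 136607440 to 136613498, C1qc (ENSMUSG00000036896) from 136617115 to 136620376 and C1qa (ENSMUSG00000036887) from 136623228 to 136626114. The C5a receptor genes are also neighbours, within 25.0 kb of chromosome 7 on the minus strand: C5ar2 (ENSMUSG00000074361) from 15968510 to 15978079 and C5ar1 (ENSMUSG00000049130) from 15980668 to 15993465. The remaining members have no other member beside them and also lie on the minus strand: C3ar1 (ENSMUSG00000040552) on chromosome 6 from 122824097 to 122833120, C3 (ENSMUSG00000024164) on chromosome 17 from 57510970 to 57535136, Cfb (ENSMUSG00000090231) on chromosome 17 from 35075350 to 35081494 and Cfp (ENSMUSG00000001128) on chromosome X from 20791693 to 20797794. Counts were taken over exons. Of the 2825 exon bases of Cfb, 2246 (79.5%) also belong to the read-through model Gm20547 on the same strand, which had 0 counts in the 10 libraries. Reads over both models are left unassigned under the counting settings of the wound table, so the level of Cfb per length is uncertain.

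Promoters are printed for 2 neighbouring C1q genes that lay on the same side in the wound and for the receptor genes C3ar1 and C5ar1, which moved in opposite directions there. The sequences are those of RefSeq for GRCm38.p6, a different build from that of the counts, and 7 of the 9 members matched the promoter table (C1qa and Cfb did not). Each line gives the 250 bases before the start site, read 5′ to 3′ on the minus strand of the genome. Capitals mark matches, on either strand, to 1 of 5 short motifs bound by myeloid transcription factors. C1qb spans chr4:136886201-136886450, C1qc chr4:136892915-136893164, C3ar1 chr6:122856158-122856407 and C5ar1 chr7:16259339-16259588.
C1qb: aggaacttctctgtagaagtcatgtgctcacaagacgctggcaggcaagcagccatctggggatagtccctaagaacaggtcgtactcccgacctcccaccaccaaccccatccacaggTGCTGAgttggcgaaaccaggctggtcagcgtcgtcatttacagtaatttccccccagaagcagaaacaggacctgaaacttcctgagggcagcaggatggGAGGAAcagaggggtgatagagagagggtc
C1qc: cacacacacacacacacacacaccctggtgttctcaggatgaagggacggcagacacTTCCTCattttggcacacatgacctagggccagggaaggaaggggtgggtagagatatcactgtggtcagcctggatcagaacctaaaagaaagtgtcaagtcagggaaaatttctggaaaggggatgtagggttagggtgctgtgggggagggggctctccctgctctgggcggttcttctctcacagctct
C3ar1: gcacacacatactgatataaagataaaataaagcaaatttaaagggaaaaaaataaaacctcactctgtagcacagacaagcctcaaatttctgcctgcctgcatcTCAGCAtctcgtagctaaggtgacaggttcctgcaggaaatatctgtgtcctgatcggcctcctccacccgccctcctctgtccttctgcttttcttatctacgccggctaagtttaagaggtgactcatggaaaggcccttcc
C5ar1: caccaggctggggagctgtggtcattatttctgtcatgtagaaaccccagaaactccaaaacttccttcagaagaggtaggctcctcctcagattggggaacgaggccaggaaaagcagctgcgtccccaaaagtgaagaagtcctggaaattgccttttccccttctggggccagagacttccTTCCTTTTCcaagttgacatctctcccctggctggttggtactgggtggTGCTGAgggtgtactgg

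The motifs were searched in windows that add the first 50 bases from the start site on, and positions count from 0 at the start site. The C1qb capitals are a MAF core (TGCTGA) at -131 to -126 and a PU.1/ETS core (GAGGAA) at -30 to -25. C1qc held a PU.1/ETS core on the opposite strand at -193 to -188. C3ar1 and C5ar1, whose levels moved apart, both held the MAF core, at -144 to -139 (opposite strand) and at -17 to -12, and C5ar1 also held an interferon response element core (GAAANNGAA, on the opposite strand) at -66 to -58. Among the 7 members with a promoter, 4 held the PU.1/ETS core (C1qb, C1qc, C5ar2 and Cfp), 4 the MAF core (C1qb, C3, C3ar1 and C5ar1), 2 the C/EBP core TTGCNNAA (C3 and C5ar2), 1 the interferon core and 0 the NF-kB core GGGANTTCC. Of all 32851 promoters in the table, 28.3% held the PU.1/ETS core, 19.5% the MAF core, 10.8% the C/EBP core, 8.56% the interferon core and 1.68% the NF-kB core. These shares are per promoter, while a member was counted if any of its promoters held the core. The 7 members had 8 promoters, 2 of them of C5ar2, with the PU.1/ETS core in 1 and the C/EBP core in the other. A match describes letters in a window and not a bound site.

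In the wound, the Eff+ libraries held less C1qa, C1qb and C3ar1 mRNA than the Eff- libraries and more C5ar1 and C5ar2 mRNA, by factors from 2.17 to 2.33. The neutrophil and macrophage marker shares given above also differed between these libraries, and their part was not tested. The edgeR quasi-likelihood test called 5 of the 9 members at an adjusted p under 0.05, 2 higher and 3 lower in Eff+. Of all 14908 genes tested, 11.2% were called, 7.39% as higher and 3.79% as lower. Higher genes were thus 66.1% of the calls, and 21.2% of the calls made with library totals alone. The median log2 fold change of the 9 members was -0.81, against -0.03 over all genes tested. For 7 of the 9 members the libraries of the groups did not overlap (2 higher and 5 lower), as for 36.8% of all genes tested.

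**Figure D1:**
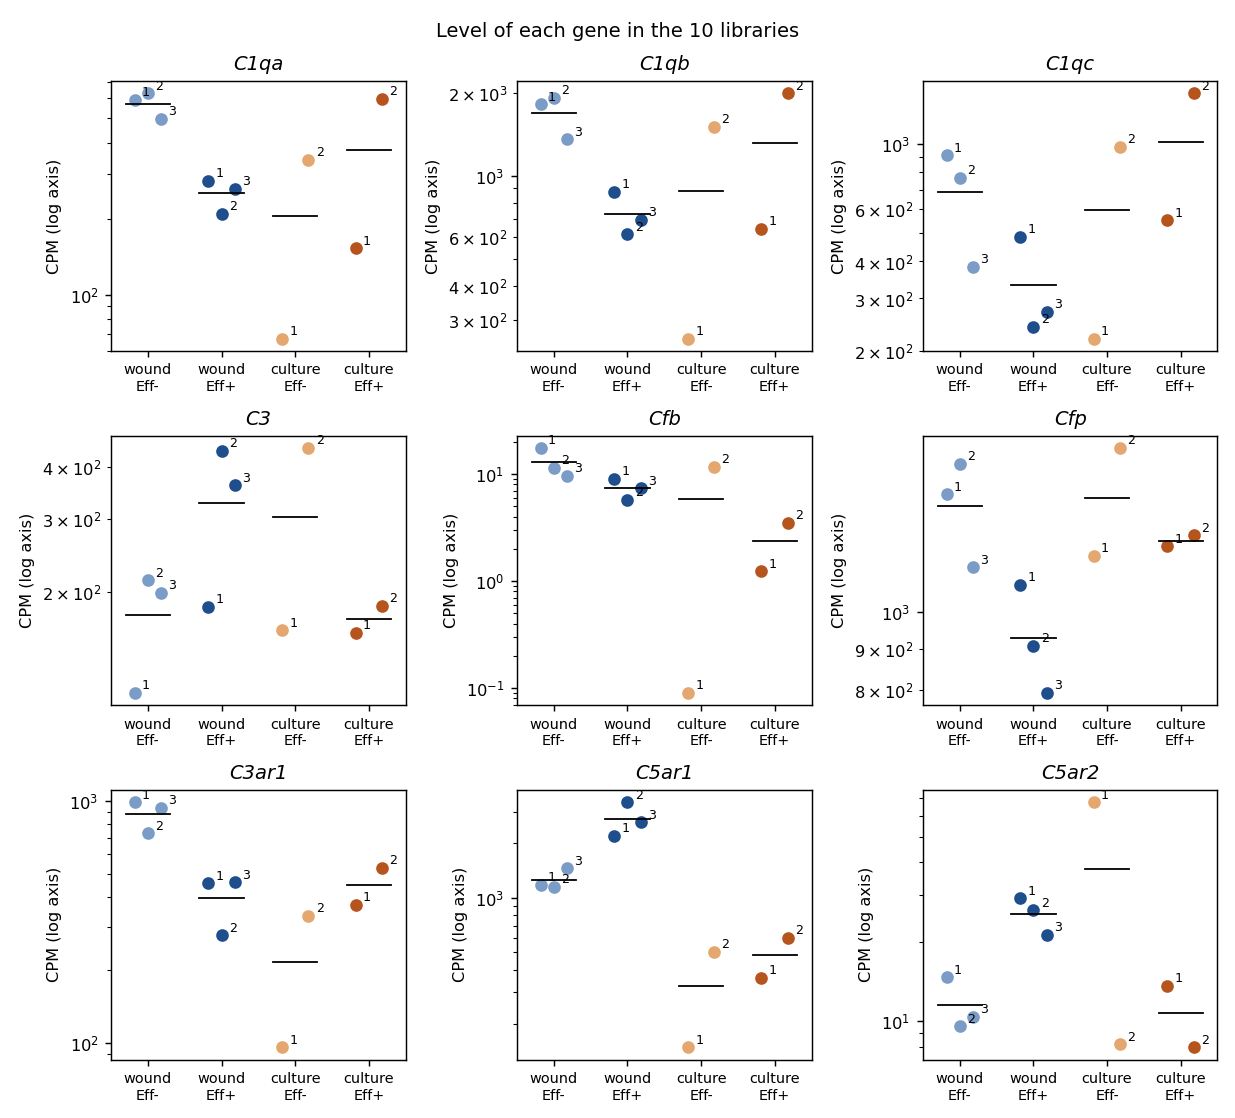
Level of each of the 9 genes in the 10 libraries, as CPM (defined beside the C1qa values) on a log axis, with 1 panel per gene, 1 point per library labelled with its number and a bar at the mean of each group. In the wound the 3 Eff+ points sit below the 3 Eff- points for C1qa, C1qb, C3ar1, Cfb and Cfp and above them for C5ar1 and C5ar2, while in culture only the C3ar1 points of the groups do not overlap.

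Of the C1q chains in the wound, C1qa was measured at 283.3, 209.9 and 262.9 CPM (the count scaled to a fixed library size, with TMM factors) in Eff+ libraries 1, 2 and 3, and at 592.5, 629.2 and 497.7 CPM in Eff- libraries 1, 2 and 3. Every Eff+ library was below every Eff- library. The mean fell from 573.2 ± 67.9 to 252.0 ± 37.9 CPM (SD, n = 3 each), a 2.27-fold difference (log2 fold change -1.19, SE 0.19, edgeR adjusted p = 0.0129).

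C1qb, the most abundant chain, was at 873.2, 613.5 and 692.7 CPM in Eff+ and at 1813, 1910 and 1353 CPM in Eff-, again with no overlap. Its log2 fold change was -1.22 (SE 0.22, edgeR adjusted p = 0.0183), 2.33-fold lower in Eff+. C1qc was at 485.3, 240.6 and 270.8 CPM in Eff+ and at 913.7, 766.7 and 383.9 CPM in Eff-. Its groups overlapped, since Eff+ 1 was above Eff- 3, and its log2 fold change of -1.05 (SE 0.38, edgeR adjusted p = 0.112) did not pass.

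The balance of the chains overlapped between the groups. Per kilobase of exon, C1qb made up 60.5, 63.3 and 61.8% of the 3 chains in Eff+ and 61.5, 63.7 and 64.7% in Eff-. C1qa made up 20.5, 22.7 and 24.5% in Eff+ and 21.0, 21.9 and 24.9% in Eff-. C1qc varied most between libraries, from 13.6 to 18.9% in Eff+ and from 10.3 to 17.5% in Eff-. As a share of all counts, the 3 genes together held 0.146, 0.0866 and 0.113% in Eff+ and 0.381, 0.394 and 0.245% in Eff-.

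Macrophage markers moved in the same direction as the C1q genes, and their part in the result was not tested. All 11 macrophage genes had negative log2 fold changes with groups that did not overlap, and their median was -1.02. The ratio of C1qa to Cd68 CPM was 0.270, 0.205 and 0.233 in Eff+ and 0.424, 0.433 and 0.342 in Eff-, with no overlap. The ratio to Adgre1, the gene of F4/80, was 0.578, 0.587 and 0.750 against 0.764, 0.815 and 0.816, also with no overlap. The ratio to Csf1r overlapped, at 0.604, 0.319 and 0.460 in Eff+ and 0.685, 0.630 and 0.586 in Eff-. The C1qa call was lost without Eff+ 2 (adjusted p = 0.0734) or Eff- 2 (0.0615), and that of C1qb without Eff+ 2, Eff+ 3, Eff- 1 or Eff- 2 (0.054 to 0.0929). C1qc was called by DESeq2 (adjusted p = 0.0347). It was also called by edgeR with library totals alone (0.0368), with no filter on low counts (0.0484) and with the replicate number as a term (0.0248).

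The anaphylatoxin receptors moved in opposite directions in the wound. C3ar1, the C3a receptor, was at 455.5, 277.7 and 460.9 CPM in Eff+ and at 986.8, 735.0 and 937.1 CPM in Eff-. All 3 Eff+ libraries were lower, and the mean fell from 886.3 ± 133 to 398.1 ± 104 CPM (SD, n = 3 each). The log2 fold change was -1.16 (SE 0.25, edgeR adjusted p = 0.0268), a 2.23-fold difference. The ratio of C3ar1 to Csf1r CPM overlapped, at 0.971, 0.422 and 0.807 in Eff+ and 1.14, 0.736 and 1.10 in Eff-. Macrophage markers moved in the same direction as C3ar1, and their part was not tested.

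C5ar1, the C5a receptor, went the other way. It was at 2206, 3384 and 2620 CPM in Eff+ and at 1182, 1147 and 1455 CPM in Eff-, with every Eff+ library above every Eff- library. The mean rose from 1261 ± 169 to 2737 ± 597 CPM (SD, n = 3 each; log2 fold change 1.12, SE 0.22, edgeR adjusted p = 0.0232), a 2.17-fold difference. C5ar2, its neighbour on the chromosome, was at 29.12, 26.25 and 21.19 CPM in Eff+ and at 14.64, 9.535 and 10.35 CPM in Eff-. It rose 2.22-fold with no overlap between groups (log2 fold change 1.15, SE 0.24, edgeR adjusted p = 0.0248).

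Per kilobase, C5ar1 stood at 105, 179 and 171 times C5ar2 in Eff+ and at 112, 167 and 195 times in Eff-, so the ratio of the C5a receptors overlapped between the groups. The ratio of C3ar1 to C5ar1 per kilobase did not, at 0.123, 0.049 and 0.105 in Eff+ and 0.498, 0.383 and 0.385 in Eff-.

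Neutrophil genes moved in the same direction as C5ar1 and C5ar2. Csf3r, the receptor of granulocyte colony-stimulating factor, had a log2 fold change of 2.20 (edgeR adjusted p = 0.0097), and the median over the 16 neutrophil genes was 2.63. The ratio of C5ar1 to Csf3r CPM was lower in every Eff+ library, at 1.31, 2.00 and 2.05 against 2.75, 5.06 and 4.08. The ratio of C5ar1 to Csf1r, the receptor of macrophage colony-stimulating factor, was higher in every Eff+ library, at 4.70, 5.14 and 4.59 against 1.37, 1.15 and 1.71. The part of these markers in the receptor differences was not tested. Of the receptors, C3ar1 lost its call without Eff+ 2, Eff+ 3 or any 1 Eff- library (adjusted p = 0.0534 to 0.0958), C5ar1 without Eff+ 2, Eff+ 3, Eff- 1 or Eff- 2 (0.0523 to 0.0981) and C5ar2 without Eff+ 1, Eff+ 2, Eff- 2 or Eff- 3 (0.0535 to 0.108). Scaled to library totals alone, C5ar2 kept its direction and missed the threshold (adjusted p = 0.0552).

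None of the complement factors C3, Cfb and Cfp was called in the wound. C3 was at 184.6, 437.9 and 361.1 CPM in Eff+ and at 114.4, 213.7 and 199.3 CPM in Eff-. Eff+ 1 lay within the Eff- range, and the log2 fold change of 0.90 (SE 0.36, edgeR adjusted p = 0.136) did not pass. Fibroblasts also make C3. All 10 fibroblast markers were positive in log2 fold change (median 1.24, 1 called higher), and they held 0.0614 to 0.224% of counts in Eff+ and 0.0233 to 0.137% in Eff-. The ratio of C3 to Col1a1 CPM overlapped, at 1.20, 0.932 and 0.407 in Eff+ and 1.89, 0.611 and 0.946 in Eff-. Of 10 keratinocyte markers 4 were tested and 2 called higher (Krt5 and Krt14, at 0 in every Eff- library). The part of these markers in the C3 values was not tested. The alternative pathway genes lay lower in every Eff+ library without passing the test. Cfp was at 1082, 908.4 and 792.9 CPM in Eff+ and at 1402, 1531 and 1137 CPM in Eff- (log2 fold change -0.55, SE 0.20, edgeR adjusted p = 0.119). Cfb was counted at 9.043, 5.700 and 7.345 CPM in Eff+ and at 17.56, 11.42 and 9.637 CPM in Eff- (log2 fold change -0.81, SE 0.31, edgeR adjusted p = 0.124). Reads over the exon bases it shares with Gm20547 were left unassigned, so these counts do not show how scarce Cfb was. Properdin relative to Csf1r overlapped between the groups, with CPM ratios of 2.31, 1.38 and 1.39 in Eff+ and 1.62, 1.53 and 1.34 in Eff-. C3 was called by edgeR without Eff+ 1 (log2 fold change 1.19, adjusted p = 0.049) and with the replicate number as a term (0.00981), and by DESeq2 (0.0424). Cfb and Cfp were called by edgeR with library totals alone (adjusted p = 0.0367 and 0.0197). Under that scaling the median of all genes moved from -0.03 to -0.42.

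The number of libraries and the choice of library both bore on the calls. Without both wound libraries numbered 2, which had the high Lyz2 counts, 0 of the 9 members and 0 of all genes were called by edgeR, in a fit of 2 against 2 libraries in which 5 members and 2212 genes had an unadjusted p under 0.05. The log2 fold changes were then -0.999 for C1qa, -1.02 for C1qb, -1.07 for C3ar1, 0.87 for C5ar1 and 1.01 for C5ar2, and no member changed direction. Of the other fits of 2 against 2, the one without both libraries numbered 3 also called 0 members and 0 genes (6 members and 3618 genes at an unadjusted p under 0.05), and the one without both numbered 1 called 3 members (C5ar2 higher, C1qa and C1qb lower) and 751 genes. Leaving out 1 wound library at a time gave between 0 and 5 called members, with 0 without Eff+ 2 and without Eff- 2, 2 without Eff+ 3 or Eff- 1, 3 without Eff- 3 and 5 without Eff+ 1. The calls over all genes fell in the same fits, from 1666 to 0 without Eff+ 2, 189 without Eff- 2, 820 without Eff+ 3, 451 without Eff- 1, 901 without Eff- 3 and 1347 without Eff+ 1.

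**Figure D2:**
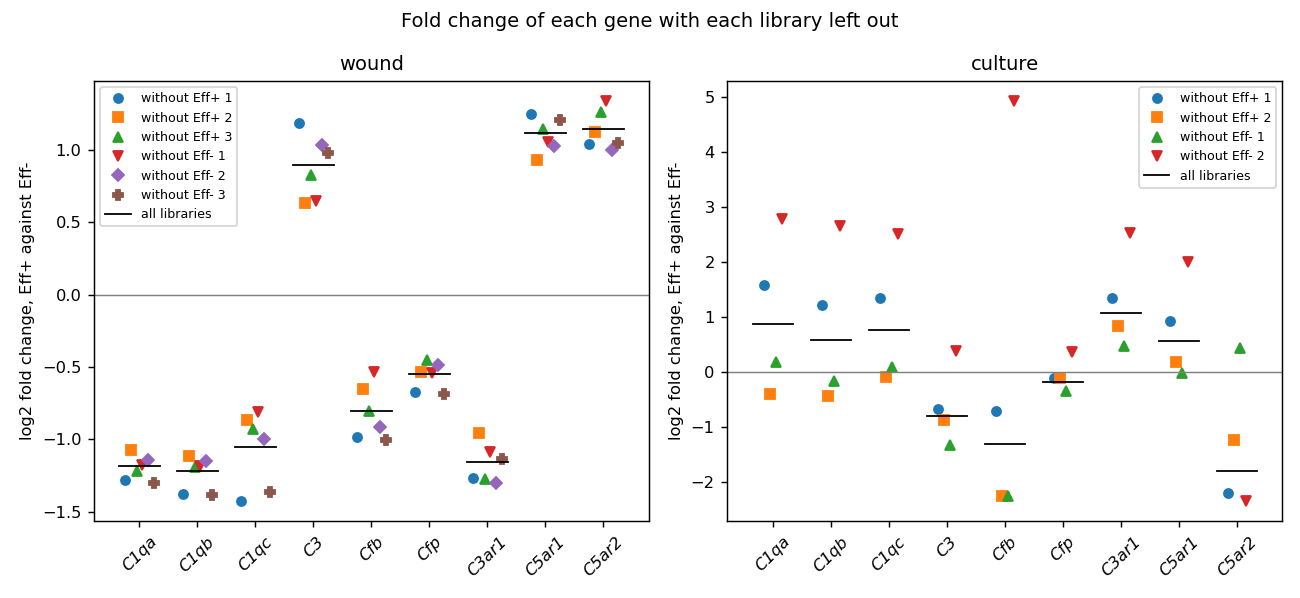
Log2 fold change of Eff+ against Eff- for each of the 9 genes, wound on the left and culture on the right, with 1 symbol per library left out and a bar for the fit with all libraries. The wound symbols of a gene stay on 1 side of 0 (C1qa between -1.30 and -1.07), while the culture symbols of 8 of the 9 genes spread across 0, and C3ar1 stays above it.

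Per kilobase of exon, the order of the members differed between the wound groups at the top. In Eff- the mean levels were 1555 CPM per kilobase for C1qb, 781.6 for Cfp, 551.1 for C1qa, 490.7 for C5ar1, 356.3 for C1qc, 205.9 for C3ar1, 34.18 for C3, 4.557 for Cfb and 3.232 for C5ar2. In Eff+ the order was C5ar1 at 1065, C1qb at 667.7, Cfp at 534.4, C1qa at 242.3, C1qc at 172.1, C3ar1 at 92.46, C3 at 63.75, C5ar2 at 7.167 and Cfb at 2.606. C5ar1 was thus the member of highest level in wound Eff+ and the fourth in wound Eff-. These are levels per length and not differences. The place of Cfb in both orders is uncertain, since reads over the exon bases it shares with Gm20547 were left unassigned. In Eff+ the range of C5ar1 (858.3 to 1317 CPM per kilobase) lay above that of C1qb (563.9 to 802.6), which overlapped that of Cfp (456.7 to 623.1). In Eff- the range of C1qb (1244 to 1756) lay above that of Cfp (655.1 to 882.1), and the ranges of C1qa (478.6 to 605.0) and C5ar1 (446.2 to 566.0) overlapped.

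In culture, no member was called, and the ranges of the groups overlapped for 8 of the 9. The edgeR test called 0.0% of 14867 genes (0 genes; 115 had an unadjusted p under 0.05, none of them a member, and DESeq2 called 2 genes and 0 members). The groups did not overlap for 1 of 9 members, C3ar1, and for 20.7% of all genes tested. C3ar1 was at 371.6 and 529.7 CPM in Eff+ and at 95.56 and 334.2 CPM in Eff-, higher in both Eff+ libraries (log2 fold change 1.07, SE 0.75, edgeR adjusted p = 1.0).

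The C1q genes in culture differed by replicate. C1qa was at 152.8 and 598.6 CPM in Eff+ and at 67.01 and 342.4 CPM in Eff-. C1qb was at 641.5 and 1988 CPM in Eff+ and at 257.8 and 1507 CPM in Eff-. C1qc was at 551.5 and 1481 CPM in Eff+ and at 219.6 and 974.5 CPM in Eff-. For each chain the libraries numbered 2 were the 2 highest of the 4, so the groups overlapped. Between libraries of the same number, Eff+ was above Eff- for every chain. Whether the numbers pair the samples is not known, and a fit with the number as a term called 0 members in culture. The log2 fold changes were 0.88 (SE 1.05), 0.58 (SE 1.08) and 0.77 (SE 0.96), with an edgeR adjusted p of 1.0 for each. Per kilobase, C1qc made up 22.7 to 27.9% of the 3 chains in the 4 culture libraries, above the 10.3 to 18.9% of the 6 wound libraries, and C1qa made up 14.4 to 18.2%, below the 20.5 to 24.9% of the wound. The tables of the models were counted separately, for culture the counting command was not stated, and this difference between models was not tested.

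The CPM of C5ar1 was lower in culture than in the wound. CPM was scaled within each model, and this difference between models was not tested. C5ar1 was at 359.8 and 601.8 CPM in culture Eff+ and at 147.9 and 502.8 CPM in culture Eff- (log2 fold change 0.56, SE 0.76). C5ar2 was at 13.59 and 7.933 CPM in Eff+ and at 67.46 and 8.156 CPM in Eff- (log2 fold change -1.81, SE 1.03). The 16 neutrophil genes held 0.154 to 0.307% of culture counts, most of it from Mmp8, a collagenase (1548 and 3036 CPM in Eff+, 1025 and 3438 CPM in Eff-). The other 15 held 0.0126 and 0.00709% in Eff+ and 0.0242 and 0.0181% in Eff-, with 8 of them (S100a9, Cxcr2, Retnlg, Ngp, Ltf, G0s2, Stfa2l1 and Ly6g) at 0 in Eff+ 2. The part of these markers in the culture values was not tested. The high value of C5ar2 belonged to Eff- 1, the library that stood apart in dendritic cell and macrophage markers, and without it the log2 fold change was 0.44. C3 was at 159.6 and 185.7 CPM in Eff+ and at 162.0 and 444.9 CPM in Eff- (log2 fold change -0.81, SE 0.64). Cfp was nearly level, at 1208 and 1246 CPM in Eff+ and at 1175 and 1602 CPM in Eff- (log2 fold change -0.18, SE 0.61). Cfb was at 1.232 and 3.489 CPM in Eff+ and at 0.0898 (2 counts) and 11.64 CPM in Eff- (log2 fold change -1.31, SE 1.84), with both extremes in Eff-. The edgeR adjusted p was 1.0 for each of these members. Without Eff- 1 the log2 fold change of C3ar1 was 0.47 and that of C1qa 0.17, and without Eff- 2 they were 2.53 and 2.79. The direction turned for C1qa, C1qb and C1qc without Eff+ 2, for C1qb, C5ar1 and C5ar2 without Eff- 1, and for C3, Cfb and Cfp without Eff- 2.

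Per kilobase, C1qb had the highest mean in both culture groups, at 1209 CPM per kilobase in Eff+ and 810.9 in Eff-, followed by Cfp at 706.6 and 799.7. The order of these 2 differed by library: C1qb was above Cfp in the libraries numbered 2 (1828 against 717.5 in Eff+, 1385 against 922.9 in Eff-) and below it in those numbered 1 (589.6 against 695.8 in Eff+, 237.0 against 676.6 in Eff-). C1qc followed at 526.3 and 309.2, C1qa at 361.2 and 196.9 and C5ar1 at 187.1 and 126.6. C3ar1 at 104.7 was above C3 at 33.56 in Eff+, and in Eff- C3 at 59.00 was above C3ar1 at 49.92, with overlapping ranges. The lowest levels were those of C5ar2 at 3.022 and 10.62 and Cfb at 0.8355 and 2.075. For Cfb the level is uncertain, given the exon bases shared with Gm20547 and a counting command that was not stated for culture. C5ar1, the top member of wound Eff+, was the fifth in culture Eff+ by level per length.

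**Figure D3:**
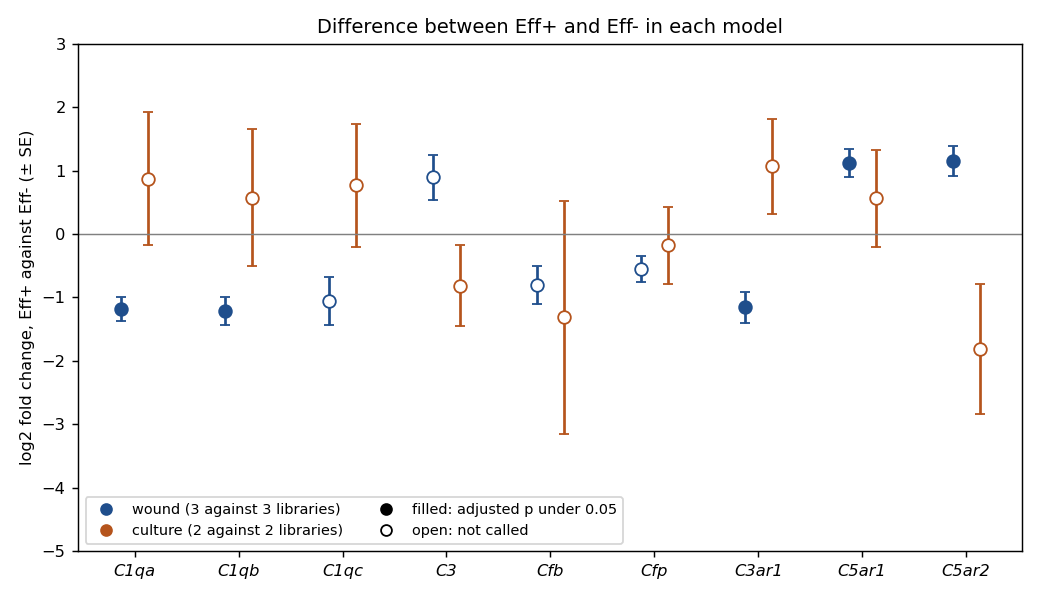
Log2 fold change of Eff+ against Eff- for the 9 genes in the wound (3 against 3 libraries) and in culture (2 against 2), with error bars of 1 SE, filled points for an adjusted p under 0.05 and open points for genes not called. The wound points of C1qa, C1qb and C3ar1 near -1.2 and those of C5ar1 and C5ar2 near 1.1 are filled, and every culture point is open with a wider bar.

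The difference between the models was tested as an interaction over all 10 libraries. No gene was called by edgeR (0.0% of 20270 tested, 0 members; 2222 genes and 4 members had an unadjusted p under 0.05), while DESeq2 called 785 genes and, of the members, C5ar2 and C3ar1. C3ar1 was lower in Eff+ in the wound and higher in Eff+ in culture, a difference of -2.20 on the log2 scale (wound minus culture, SE 0.70, unadjusted p = 0.00923, edgeR adjusted p = 0.304). For C5ar2 the difference was 2.97 (SE 0.93, unadjusted p = 0.00834, edgeR adjusted p = 0.299). That difference shrank to 0.73 (edgeR adjusted p = 0.663) without culture Eff- 1, the library of highest C5ar2. C1qa had a difference of -2.03 (SE 0.92, unadjusted p = 0.049, edgeR adjusted p = 0.453) and C3 one of 1.73 (SE 0.70, unadjusted p = 0.0304, edgeR adjusted p = 0.405). For C1qb and C1qc the differences were -1.77 and -1.79 (SE 0.94 and 0.93), and for C5ar1, Cfb and Cfp they were 0.58, 0.53 and -0.35 (SE 0.71, 1.52 and 0.48), with an edgeR adjusted p of 0.506 to 0.97 over these 5 members. Without culture Eff- 2, edgeR called 6 members for this difference (C5ar2 higher, and C1qa, C1qb, C1qc, C3ar1 and Cfb lower in the wound relative to culture) and 2009 of all genes, while C3 fell to 0.77 (adjusted p = 0.465). Without culture Eff+ 2 the differences of C1qa, C1qb and C1qc shrank to -0.77, -0.76 and -0.93 (edgeR adjusted p = 1.0 each), and without culture Eff- 1 to -1.32, -1.02 and -1.11 (0.551 to 0.661).

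Other complement genes and genes related to them were followed as 63 genes in 8 lists. The lists of other chemoattractant receptors (3 called higher and 1 lower in wound Eff+) and of transcription factors (1 higher and 3 lower) are not of complement genes. The remaining lists had 0 genes called higher. Of the 63 genes, 43 were tested in the wound. Of these 43, 4 were called higher and 8 lower in Eff+, and their median log2 fold change was 0.26. Over all genes tested 7.39% were called higher and 3.79% lower, with a median of -0.03, and the counts of each list below stand against these shares. In culture 37 were tested and edgeR called 0 of them, with a median of -0.26. The 12 wound calls fell to between 0 and 7 with 1 library left out (7 without Eff+ 1, 6 without Eff+ 3 or Eff- 3, 4 without Eff- 1, 2 without Eff- 2 and 0 without Eff+ 2) and to 0 without both libraries numbered 2.

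Among genes that act with C1q at the start of the cascade, 7 of 15 were tested in the wound and 2 were called, both lower. C4b, a form of C4, was at 8.254 ± 0.78 CPM in Eff+ and 17.00 ± 4.28 CPM in Eff- (SD, n = 3 each). Its log2 fold change was -1.04 (edgeR adjusted p = 0.0372). Reads that match its near-identical copy C4a equally well may be missing from the counts of both genes. Fcna, a ficolin that starts the lectin pathway, was at 9.985 ± 0.63 against 19.12 ± 4.57 CPM (SD, n = 3 each; log2 fold change -0.94, edgeR adjusted p = 0.0393). The C1s gene C1s1 did not pass (log2 fold change 1.22, edgeR adjusted p = 0.29) and was chosen for mention after its value was seen.

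Of 12 regulators 7 were tested and 0 called. Serping1, the gene of the C1 inhibitor, which blocks the proteases bound to C1q, and Cr1l (Crry), a membrane regulator of the C3 convertases, had the highest levels per length. Their log2 fold changes were 1.28 and 0.24 (edgeR adjusted p = 0.271 and 0.502). Fibroblasts also express Serping1 and C1s1, and the fibroblast marker values given above lie beside theirs; their part was not tested. Of the 7 terminal components 4 were tested and 0 called, and C7 and C8g, the 2 of highest level per length, had log2 fold changes of 1.43 and -0.76 (edgeR adjusted p = 0.47 and 0.755). Cfd, the protease of the alternative pathway that cleaves factor B, was low and spread widely (0.1286 to 8.529 CPM in Eff+, 0 to 0.5329 CPM in Eff-; log2 fold change 3.65, SE 1.71, edgeR adjusted p = 0.198).

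Complement receptors and C1q-binding proteins had 8 of 9 tested and 2 called, both lower in wound Eff+. Lrp1, a scavenger receptor that acts with calreticulin in the uptake of C1q-coated cells, had a log2 fold change of -0.97 (edgeR adjusted p = 0.0494). C1qbp, which binds the globular heads of C1q and is mostly mitochondrial, had one of -1.0 (edgeR adjusted p = 0.0403). Of the 8 genes of anaphylatoxin inactivation and receptor signalling 5 were tested and 0 called. Gnai2, a G protein subunit used by the anaphylatoxin receptors, and Arrb2, an arrestin, had log2 fold changes of 0.28 and 0.04 (edgeR adjusted p = 0.38 and 0.928).

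Other chemoattractant receptors had 5 of 5 tested, with 3 called higher and 1 lower in wound Eff+. Fpr1, a receptor of formylated bacterial and mitochondrial peptides, was at 1368 ± 392 CPM in Eff+ and 329.0 ± 85.0 CPM in Eff- (SD, n = 3 each; log2 fold change 2.06, edgeR adjusted p = 0.0098). Its paralog Fpr2 and the platelet-activating factor receptor Ptafr were also higher, with log2 fold changes of 1.96 and 1.16 (edgeR adjusted p = 0.0097 and 0.013). Cmklr1, the chemerin receptor, was lower (log2 fold change -1.16, edgeR adjusted p = 0.0487). Neutrophils carry Fpr1, Fpr2 and Ptafr as well, and the neutrophil marker shares given above moved in the same direction; their part was not tested.

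Of 6 transcription factors of the C1q and C3 genes all 6 were tested, with 1 called higher and 3 lower in wound Eff+. Maf, a basic leucine zipper factor of macrophages, was at 47.53 ± 13.5 CPM in Eff+ and 105.8 ± 22.8 CPM in Eff- (SD, n = 3 each; log2 fold change -1.15, edgeR adjusted p = 0.0304). The gene is also on the macrophage marker list. Nr1h3, the oxysterol receptor LXR alpha, and Irf8, an interferon-regulatory factor of myeloid cells, were lower as well (log2 fold changes -1.15 and -0.89, edgeR adjusted p = 0.0222 and 0.028). Cebpb, a factor of acute-phase and granulocytic genes, was higher (log2 fold change 1.30, SE 0.20, edgeR adjusted p = 0.0122). Spi1, the gene of PU.1, was at 432.4 ± 177 against 315.0 ± 131 CPM (SD, n = 3 each; log2 fold change 0.46, edgeR adjusted p = 0.468), and was chosen for mention after its value was seen.

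**Figure D4:**
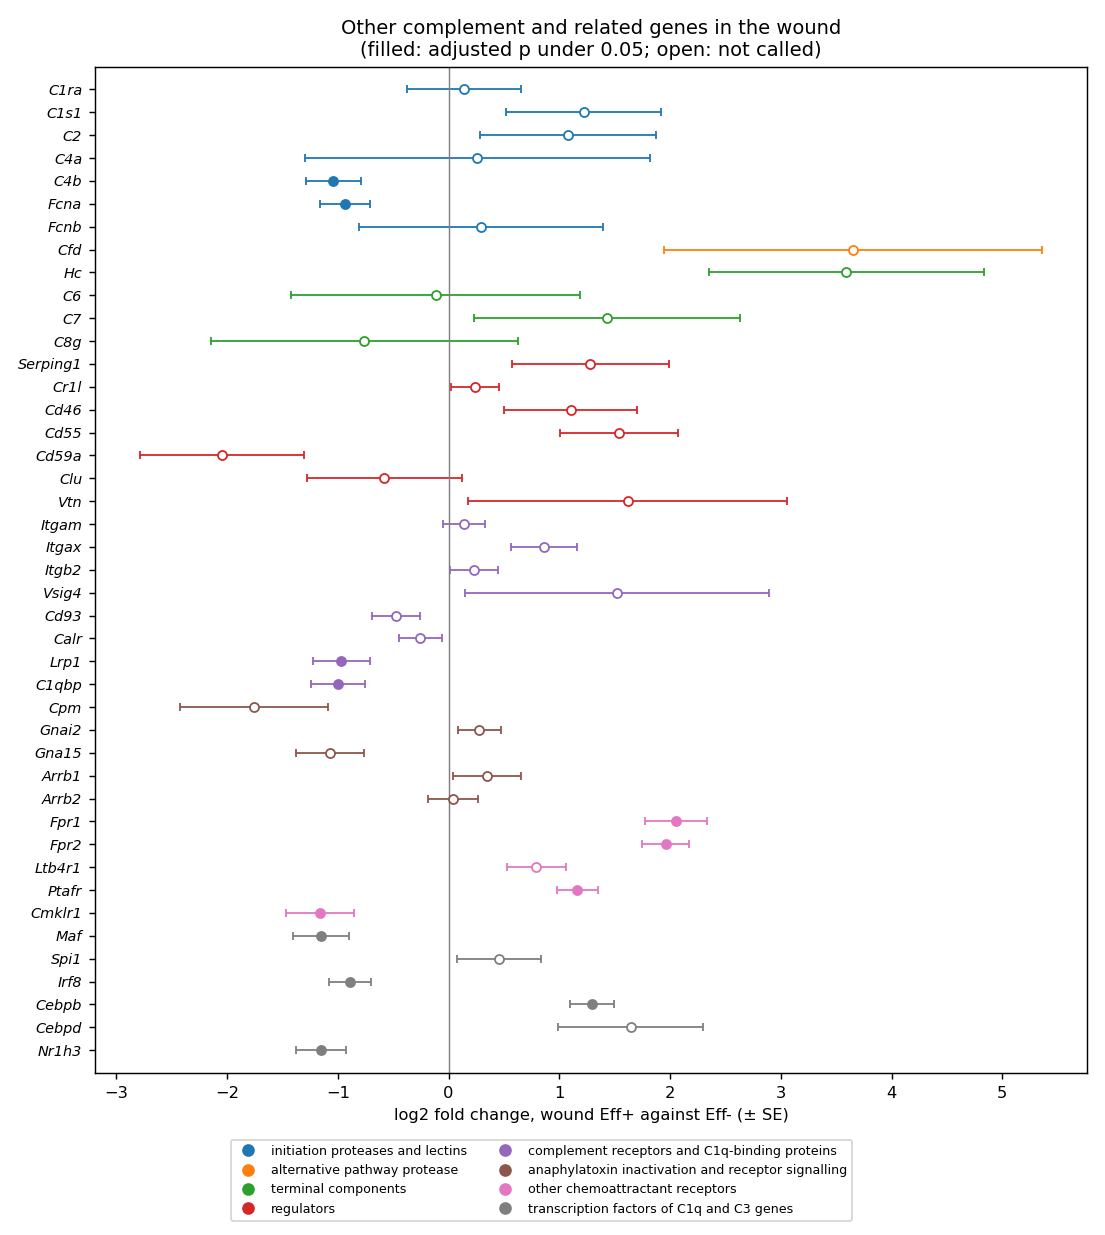
Log2 fold change of wound Eff+ against Eff- for the 43 tested genes of 8 lists of other complement and related genes, with error bars of 1 SE, colours by list, and filled points for an adjusted p under 0.05. The 4 filled points above 0 are Fpr1, Fpr2, Ptafr and Cebpb, and the 8 below it include Maf and Nr1h3 at -1.15.

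In culture the same lists gave no call by edgeR, with an adjusted p of 1.0 for each gene named here. Fcna and C1ra, the 2 initiation genes of highest level per length, had log2 fold changes of 0.16 (SE 1.52) and -0.63 (SE 1.19). For the regulators Cr1l and Cd59a they were -0.19 (SE 0.52) and 0.74 (SE 1.22), and for the terminal components C8g and C6 they were -0.57 (SE 0.67) and -0.30 (SE 2.57). Cfd was not tested. Itgb2, the beta chain of complement receptors 3 and 4, and Calr, calreticulin, had values of -0.09 (SE 1.04) and 0.52 (SE 0.77). Arrb2 and Gnai2 had values of -0.32 (SE 0.47) and -0.58 (SE 0.57), Ptafr and Fpr1 of -0.94 (SE 0.94) and -1.09 (SE 1.55), and Spi1 and Cebpb of -0.23 (SE 0.74) and -0.17 (SE 0.47).

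The genes closest to C1qa and to C5ar1 were sought by the root mean square difference of log2 CPM, centred on each gene's mean, over the 10 libraries and 13091 genes that passed the filter in both models. This measure is a description, and it follows the wound and culture libraries at once. C1qb was the nearest of all genes to C1qa, at 0.243, while C3ar1 ranked 27 at 0.422 and C1qc ranked 597 at 0.728, against a median of 1.366 over all genes. Outside the members, and leaving out gene models without a standard symbol, the nearest were Dab2 at 0.258, Ccl9 at 0.278, Gbp6 at 0.312, Dmac1 at 0.323 and Slamf6 at 0.330. Dab2, an endocytic adaptor, was also lower in wound Eff+ (log2 fold change -1.11, edgeR adjusted p = 0.0115). Under the same rule the nearest to C5ar1 were Med7 at 0.256, Dnajb9 at 0.292, Map3k8 at 0.297, Arf2 at 0.300 and Gk at 0.300, against a median of 1.783. C5ar2, the neighbour that rose with C5ar1 in the wound, was at 1.714 from it, close to that median. This distance includes culture Eff- 1, the library of highest C5ar2. There C5ar1 stood at 3.04 times C5ar2 per kilobase, against 36.7 and 105 times in culture Eff+ 1 and 2 and 85.4 times in culture Eff- 2. The distance without that library was not computed.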

How the data were processed

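RNA sequencing libraries of sorted mouse macrophages, 6 from wounds and 4 from culture, were compared from the deposited raw counts per gene. Per the file headers, the authors counted the wound reads with featureCounts 1.6.0 at default settings, with no strand option, on the Ensembl release 106 annotation of GRCm39, so reads of antisense neighbours cannot be told apart. Trimmomatic 0.39 is named in the submitters' processing notes. Neither the aligner nor the counting command of the culture table is given in these sources. A further 4 columns of the culture table match no sample and were not used, and 0 rows name no gene. GENCODE vM21 named 52081 of 55414 identifiers, which held 99.91% of counts. Replicates differed by more than sampling noise in every pair (chi-square per degree of freedom from 78.9 to 459.9).

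Each model was fitted alone in edgeR 4.0.16 under R 4.3.3, with TMM scaling, filterByExpr and, for Eff+ against Eff-, the quasi-likelihood test without covariates. The interaction used all 10 libraries. P-values were adjusted by Benjamini-Hochberg over all genes tested and called under 0.05. The SE was taken as the absolute log2 fold change over the root of its F statistic. CPM values use TMM-scaled library sizes within each model, and levels per kilobase divide them by exon length. The code of the fits was tested on simulated data with known changes. Alternatives were DESeq2 1.42.0, limma-voom (limma 3.58.1), other scalings, other filters, a replicate block, left-out libraries and removal of the markers of other cell types. Newer quasi-likelihood settings of edgeR and fits without both wound libraries numbered 1 or 3 were added after seeing the data.

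The members, gene lists, markers and motifs were chosen with earlier results of these data known. Besides the members, the text names every called gene of the lists of other complement and related genes, and the 2 of highest level per length in a list with none called. It also names the 5 genes with a standard symbol nearest to C1qa and to C5ar1. C1s1, Spi1, Lyz2 and the markers set beside a result are outside that rule. A pair of list genes is not reported here, and every list count is over the genes that remain.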

Additional observations from a re-analysis of the deposited data

Results flagged for a closer look

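C3ar1 was the member whose libraries did not overlap between Eff+ and Eff- in either model while going opposite ways: all 3 wound Eff+ libraries were below the 3 Eff- libraries, and both culture Eff+ libraries were above both Eff- libraries. Of all genes tested, the groups did not overlap for 36.8% in the wound and 20.7% in culture. The share of genes that did so in both models while going opposite ways was not computed. The difference between the models was -2.20 on the log2 scale (wound minus culture, SE 0.70). The interaction test of edgeR gave an adjusted p of 0.304 (unadjusted p = 0.00923), DESeq2 gave an adjusted p of 0.0321, and over all alternatives the adjusted p ran from 0.00111 to 0.794 and the difference from -3.43 to -1.60. Groups of 2 or 3 libraries were too small for a test of single outlying libraries.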

How the results depend on the processing

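In the wound no member changed direction under any alternative run, and 130 of the alternative values kept their side of the threshold, 32 lost a call and 9 gained one. Against 1666 genes called in the wound, library totals alone gave 3368 (21.2% of them higher, against 66.1%), DESeq2 3135, the fits without both libraries numbered 1, 2 and 3 gave 751, 0 and 0, and those with 1 library left out 0 to 1347. Members called in the wound were 5, 0 to 5 with 1 library left out, and 3, 0 and 0 without both libraries numbered 1, 2 and 3. Other complement and related genes called were 12, 0 to 7 with 1 library left out and 19 by DESeq2. Without both libraries numbered 1, 2 and 3 they were 6, 0 and 0.

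In culture 0 genes were called, 2 by DESeq2, 2 with no filter on low counts and 0 to 27 with 1 library left out. For the difference between models 0 genes were called, 785 by DESeq2, 517 with no filter and 0 to 2009 with 1 library left out, and of the members 0, 2, 2 and 0 to 6.

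The replicate block, which fits the replicate number as a term, called 2985 genes in the wound, 48 in culture and 441 for the difference between models, 19 other complement genes in the wound, 7 members in the wound (C1qc and C3 added, adjusted p = 0.0248 and 0.00981) and 2 for the difference (C1qa and C3ar1). Deviations of wound libraries with the same number correlated at 0.41, 0.017 and 0.234. Libraries numbered 1 and 3 correlated best with their own number, while Eff+ 2 correlated best with Eff- 3 (0.152). Both wound libraries numbered 2 had the high Lyz2 counts. In culture, libraries of the same number correlated at 0.739 and the others at -0.739. With 2 libraries per group these are 1 value by construction, with its sign turned. These values do not settle whether the numbers pair the samples. No label says so, and the fit without the block stayed the main one. With the block, Cfb had log2 fold changes of 0.29 in culture and -0.88 for the difference.

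Directions turned in culture at 12 values and for the difference between models at 6. With 1 culture library left out, the culture log2 fold changes ran from -0.402 to 2.788 (C1qa), -0.445 to 2.65 (C1qb), -0.090 to 2.509 (C1qc), -1.332 to 0.384 (C3), -0.031 to 1.997 (C5ar1), -2.361 to 0.435 (C5ar2), -2.267 to 4.926 (Cfb) and -0.351 to 0.354 (Cfp). Cfb was at 1.115 by limma-voom and Cfp at 0.029 with no filter. For the difference, they ran from -0.616 to 1.177 (C5ar1) and -5.483 to 1.493 (Cfb) with 1 library left out, and Cfb was at -0.012 with library totals alone and -1.794 by limma-voom. The cause was not tested. Where 1 library remained in a group, it was assumed to vary like the other groups. With library totals alone the median of all genes moved from -0.03 to -0.42 in the wound, from -0.05 to -0.17 in culture and from 0.32 to 0.08 for the difference. In culture Eff- 1, Cfb rested on 2 counts.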
